A study of Gallus gallus with 12 samples.

Results

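The strong compact regions of the chicken liver methylome were 808 stretches of the numbered chromosomes with one of the highest scoring peaks of methylated DNA in every library and no broad peak in any. They were selected on the peak scores themselves. Overlapping or touching peaks of 6 deposited lists were merged into 84130 regions, and the scores of each list were ranked as percentiles. A region was kept when its best peak stood at percentile 95 or above in all 6 lists and it held no peak of 3000 bp or more. The 808 regions were 0.960% of all merged regions and 2.96% of the 27343 compact regions with a peak in all 6 lists, and they covered 1.71 Mb, which was 2.65% of the merged length. Since score, presence in every list and the width limit chose the regions, those quantities are given as a description only.

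The lists came from methylated DNA immunoprecipitation sequencing (MeDIP-seq), in which an antibody against methylated cytosine pulls down fragments of genomic DNA that are then sequenced. DNA was taken from the liver of chickens recorded as ALV-J-resistant (3 libraries) or ALV-J-susceptible (3 libraries), where ALV-J is avian leukosis virus subgroup J, a retrovirus of chickens. The labels give no strain, age, sex, treatment or infection state for either group, and whole liver mixes several cell types. Replicate numbers 1, 2 and 3 follow the deposition order within a group. Nothing in the labels ties each library to its own bird, so the spread between libraries given below may be technical.

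In vertebrate DNA, methylation sits mostly on cytosines that precede a guanine (CpG), and most such sites are methylated outside promoters rich in CpG. Because the antibody needs several methylated cytosines on a fragment, MeDIP enrichment favours DNA that is both methylated and dense in CpG. The peak score used here is scaled for neither peak width nor read depth, so it measures neither property directly. Chicken chromosomes range from a few large macrochromosomes to many small microchromosomes, which are richer in genes and in CpG, so a high density of methylated regions per Mb on the small chromosomes is familiar background. Gene annotation and sequence of the build used by the files (galGal4) were not used here, so the regions are given by coordinate alone, and their CpG content was not tested. All coordinates below are 1-based positions in galGal4.

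The 6 lists held between 55599 and 64559 peaks, with median scores between 186 and 199. The score at percentile 95 ran from 1761 in resistant replicate 1 to 2004 in resistant replicate 3. Resistant replicate 3 and susceptible replicate 3 stood apart from the other 4, with 5102 and 5149 peaks on chromosome Z against 2978 to 3238. They also had the fewest peaks on numbered chromosomes, 50847 and 50272 against 52420 to 61061. When the rule was applied to the other 4 lists alone, 1266 regions were found, among them all 808. The read depth behind the scores is unknown.

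A score is read here as −10 times the log10 of the peak caller's p-value, and at the top of the lists it no longer separates peaks. Between 1333 and 1612 peaks per list carried the score 3100 exactly, and another 80 to 100 lay between 3100 and 3233.06. The smallest positive number in double precision gives 3233.06 on this scale, so scores of 3100 and more were read as a ceiling. Of the 808 regions, 319 (39.5%) were at or above 3100 in all 6 libraries and 92 (11.4%) in none. In resistant replicates 1, 2 and 3, 544, 605 and 523 regions reached the ceiling, and in susceptible replicates 1, 2 and 3, 573, 508 and 435 did. The order among the 319 is therefore not resolved by the score, and neither setting all scores above 3100 to 3100 nor giving ties their highest rank changed the 808.

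At the other end of the selection, the region just inside the limit lay on chromosome 7 (22033771 to 22035390), with its lowest percentile at 95.004 in resistant replicate 3. Its scores were 2667, 2084 and 2004 in resistant replicates 1, 2 and 3, and 2204, 2585 and 2306 in susceptible replicates 1, 2 and 3. The next regions inside lay on chromosome 5 (22935834 to 22938502, lowest percentile 95.016) and on chromosome 15 (11049207 to 11051122, 95.025). Just outside lay a region of chromosome 20 (9687674 to 9690510), whose lowest percentile was 94.998. Its scores were 2503, 2012 and 2004 in the resistant libraries and 2678, 2194 and 2109 in the susceptible ones. The other neighbours outside were on chromosome 4 (57407276 to 57408421, 94.996) and chromosome 1 (157469582 to 157471045, 94.992). The chromosome 1 region scored 3211, 3100, 2794, 3051 and 3205 in the first 5 libraries and missed the limit through 1881 in susceptible replicate 3 alone.

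Regions selected on 5 lists were mostly strong in the left-out list, whose scores and peak widths that choice had not used. The regions themselves were merged from all 6 lists, the left-out one included. When compact regions were selected on 5 lists, 97.4%, 97.3% and 92.5% of them were at percentile 95 or above in the left-out resistant replicates 1, 2 and 3. In the left-out susceptible replicates 1, 2 and 3 the shares were 96.4%, 97.0% and 91.2%. Of all compact regions with a peak in the 5 selecting lists, 4.43% to 6.43% were that strong in the left-out list. The mean was 95.3% ± 2.73 (SD, n = 6 libraries) against 5.45% ± 0.881 for that background. The 6 selections shared most of their lists and regions, so these SDs do not measure independent repeats. Regions strong in the left-out list were the 808 themselves and 3 to 39 more with a peak of 3000 bp or more there. The shares therefore describe the overlap of the lists and are no separate support for the 808. No selected region lacked a peak in the left-out library, and 0 to 4 per library fell under percentile 90. The lowest shares belonged to the pair of libraries with most Z peaks.

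The same held between the groups, again with the 808 among the regions strong on both sides. Selection on the 3 resistant lists gave 1114 compact regions, of which 876 (78.6%) were strong in all 3 susceptible lists, against a background of 3.06%. Selection on the 3 susceptible lists gave 1009, of which 862 (85.4%) were strong in all 3 resistant lists, against 3.36%. Of the 1114 chosen on resistant libraries, 16 were strong in 0 susceptible libraries and 9 lacked a peak in at least 1 of them. Of the 1009 chosen on susceptible libraries, 3 were strong in 0 resistant libraries and none lacked a peak in any.

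**Figure D1:**
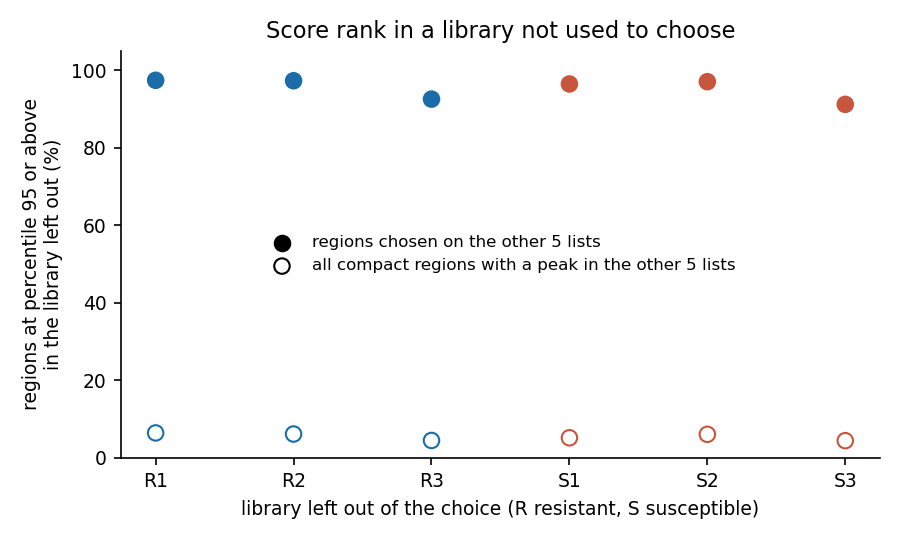
Share of regions at score percentile 95 or above (y axis, percent) in the library that was left out of the selection (x axis, 6 libraries), with regions selected on the other 5 lists shown beside all compact regions that have a peak in those 5 lists. The selected regions lie between 91.2% and 97.4% and the background between 4.43% and 6.43%.

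Strong compact regions were between 370 and 5992 bp long, with a median of 2107 bp and quartiles of 1545 and 2650 bp. The other 26535 compact regions with a peak in all 6 lists had a median of 894 bp. The 693 strong regions that held a broad peak had a median of 4631 bp. The length of the selected regions is bounded by the width limit on single peaks, and the score is not scaled for peak width, so the difference in length is a description. In each library the best peak was more than 2.5 times as wide at the median as in the other compact regions. Median widths were 1778, 1740 and 1843 bp in resistant replicates 1, 2 and 3 and 1751, 1776 and 1860 bp in the susceptible ones, against 652 to 730 bp elsewhere.

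**Figure D2:**
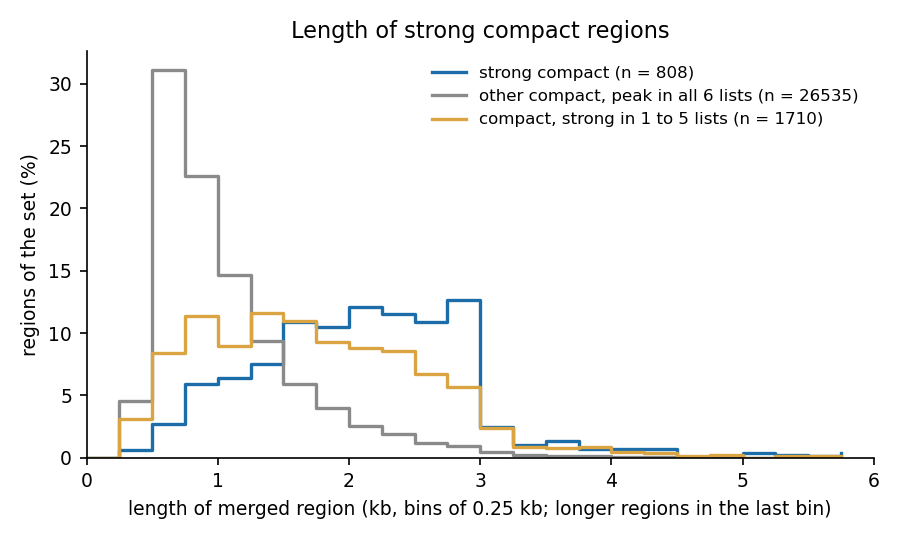
Length of merged regions (x axis, kb) as a share of each set (y axis). The sets are strong compact regions, other compact regions with a peak in all 6 lists, and compact regions strong in 1 to 5 lists. Their medians are 2107, 894 and 1667 bp in that order, and the fall near 3000 bp in the strong compact regions follows from the width limit.

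A small class of short regions reached the same scores. Under 1000 bp there were 75 (9.28%), and 41 of these (54.7%) stood at the ceiling in all 6 libraries, a larger share than the 31.5% at 1000 to under 2000 bp and the 44.6% at 2000 to under 3000 bp. Of the 75, 52 (69.3%) lay on macrochromosomes, where 46.3% of the other compact regions of that length lay. The shortest, on chromosome 7 (32915160 to 32915529), was 370 bp long. Its scores were 1843, 3100 and 3100 in resistant replicates 1, 2 and 3 and 2251, 3100 and 2751 in the susceptible ones, from peaks of 217 to 370 bp. The next shortest were a 403 bp region of chromosome 1 (1580886 to 1581288) and a 469 bp region of chromosome 2 (5624630 to 5625098). The chromosome 2 region scored 3100 in all 6 libraries from peaks of 367 to 464 bp, and its nearest strong compact neighbour was 1636 kb away. A 475 bp region of chromosome 24 (6044824 to 6045298) scored 3100 in 5 libraries and 2597 in susceptible replicate 3. A 499 bp region of chromosome 7 (143923 to 144421) scored 3100 in all 6, with peak widths of 417, 335 and 395 bp in the resistant libraries and 350, 440 and 495 bp in the susceptible ones.

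The ceiling leaves the 319 regions without an order, so the 10 named here for their lowest percentile are examples and not the strongest. In the percentiles 4 regions stood ahead, through scores above 3100 in susceptible replicate 1, and setting those scores to 3100 ties them with the rest. They include a region of chromosome 18 (4340283 to 4343757), with 3100, 3100 and 3227 in the resistant libraries and 3145, 3100 and 3100 in the susceptible ones. The others were regions of chromosome 5 (385162 to 387928), chromosome 2 (34035630 to 34038919) and chromosome 19 (4175862 to 4178040), each at 3100 or more throughout. The other examples are the tied regions with the narrowest widest peak, a choice made after the values were seen. Beside the chromosome 2 region of 469 bp and the chromosome 7 region of 499 bp, these were 3 regions of chromosome 1 (4695205 to 4695741, 43367207 to 43367811 and 128004110 to 128004703) and 1 of chromosome 18 (30297 to 30833). On chromosome 1 the regions at 43367207 and 128004110 had peaks of 283 to 532 bp and 269 to 527 bp, and only 45.8% and 40.1% of their lengths were covered in all 6 libraries.

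At the long end, 66 regions (8.17%) reached 3000 bp or more by joining several peaks. The longest, 5992 bp on chromosome 25 (404466 to 410457), was built from 20 peaks over the 6 lists, with scores of 3100, 3127 and 2493 in the resistant libraries and 2164, 1973 and 2871 in the susceptible ones. A region of 5944 bp lay on the same chromosome (1788840 to 1794783). Those of 5898 bp on chromosome 2 (53893318 to 53899215), 5581 bp on chromosome 11 (17134606 to 17140186) and 5433 bp on chromosome 9 (14440414 to 14445846) complete the 5 longest.

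The length covered by peaks in all 6 libraries was 84.2% of the region at the median (quartiles 75.9% and 89.8%), against 64.3% (53.3% and 73.6%) in the other compact regions. Within length classes the medians were 77.5% against 64.9% under 1000 bp, 85.0% against 61.6% at 1000 to under 2000 bp, 87.2% against 66.1% at 2000 to under 3000 bp and 76.2% against 62.9% at 3000 bp or more. The start of the best peak varied by a median SD of 47.3 bp between libraries and its end by 52.3 bp, close to the 50.6 and 56.5 bp of the shorter other compact regions. Under 1000 bp the starts varied by 43.8 bp, against 44.1 bp in the others, and the ends by 26.2 bp, against 45.3 bp. In the class from 2000 to under 3000 bp these were 53.7 and 58.2 bp, against 236 and 232 bp in the other compact regions of that length. In 584 regions (72.3%) each list held exactly 1 peak, a smaller share than the 80.2% of the other compact regions, which were shorter. Within each length class the share was larger than in the others. It was 100% against 98.7% under 1000 bp and 90.6% against 63.2% at 1000 to under 2000 bp. At 2000 to under 3000 bp it was 64.0% against 19.4%, and at 3000 bp or more 9.09% against 1.30%. In 800 of the 808 the best peaks of all 6 libraries shared at least 1 base. Where peaks of a library tied for the highest score in a region, the first by position was taken as the best. Widths, starts and ends of best peaks partly depend on that choice.

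**Figure D3:**
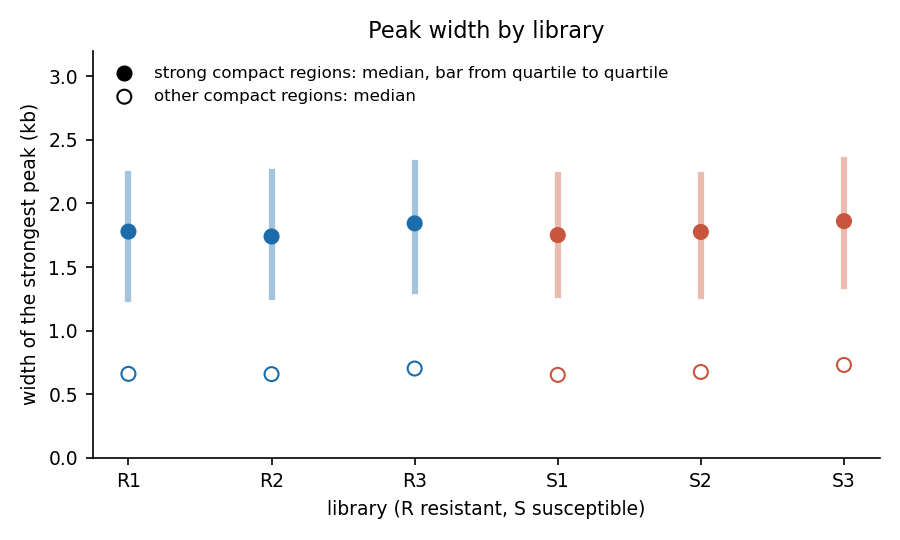
Median width of the best peak (y axis, kb) in each of the 6 libraries (x axis). Strong compact regions are shown with bars from quartile to quartile, beside the other compact regions with a peak in all 6 lists. Medians are 1740 to 1860 bp in the strong compact regions and 652 to 730 bp in the others, in both groups.

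Every numbered chromosome of the lists held strong compact regions. The macrochromosomes 1 to 5 held 312 (38.6%) at 0.516 per Mb, the intermediate chromosomes 6 to 10 held 129 (15.97%) at 0.900 per Mb, and the microchromosomes 11 to 28 held 367 (45.4%) at 2.14 per Mb. Densities are per Mb of measured length, the highest peak end on a chromosome in any list. The microchromosomes were therefore 4.14 times as dense as the macrochromosomes. That ratio was 3.78 for the other compact regions, and 3.93 ± 0.424 (SD, n = 6 libraries) for compact regions at percentile 95 or above in a single list. Relative to the compact regions present in all lists, the excess on microchromosomes was small, with 3.14% of them selected there, 2.67% on intermediate chromosomes and 2.88% on macrochromosomes. It turned under a ranking by score per kb of peak, which found 767 regions and put 33.0% of them on microchromosomes, against 43.0% of the others. With peaks limited to under 2000 bp it also turned, 38.2% against 41.7%.

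Microchromosomes differed among themselves more than the classes did, from 0.958 per Mb on chromosome 13 to 15.1 per Mb on chromosome 16. Chromosome 16, which carries the major histocompatibility complex and the nucleolus organiser and is short in this build, held 8 regions on 0.531 Mb. Chromosome 25, home of a large cluster of skin and feather structural genes, held 29 at 13.2 per Mb. Chromosomes 27 and 28 followed with 33 (6.33 per Mb) and 23 (4.85 per Mb). These 4 also led in the share of their compact regions that were strong, together with chromosomes 5 and 12. The shares were 10.7% on chromosome 16, 7.20% on 25, 6.02% on 27, 4.34% on 5, 4.23% on 28 and 4.07% on 12. The lowest were 1.55% on chromosome 26 (10 regions, 1.88 per Mb) and 1.90% on chromosome 3 (35 regions, 0.317 per Mb).

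Of the large chromosomes, chromosome 1 held 103 regions, chromosome 2 held 77, chromosome 4 held 37 and chromosome 5 held 60. At 1.01 per Mb, chromosome 5 was denser than chromosomes 1 and 2, at 0.527 and 0.517 per Mb. Chromosomes 6, 7, 8, 9 and 10 held 23, 21, 28, 31 and 26. Chromosomes 11, 12, 13, 14 and 15 held 19, 33, 17, 17 and 16, and chromosomes 17, 18, 19 and 20 held 24, 20, 29 and 26. On chromosomes 21, 22, 23 and 24 there were 20, 10, 16 and 17. The width limit weighed unequally on them. Compact regions were 61.7% of all strong regions on macrochromosomes, 55.4% on intermediate chromosomes and 48.2% on microchromosomes, and 33.3% and 32.7% on chromosomes 11 and 14.

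**Figure D4:**
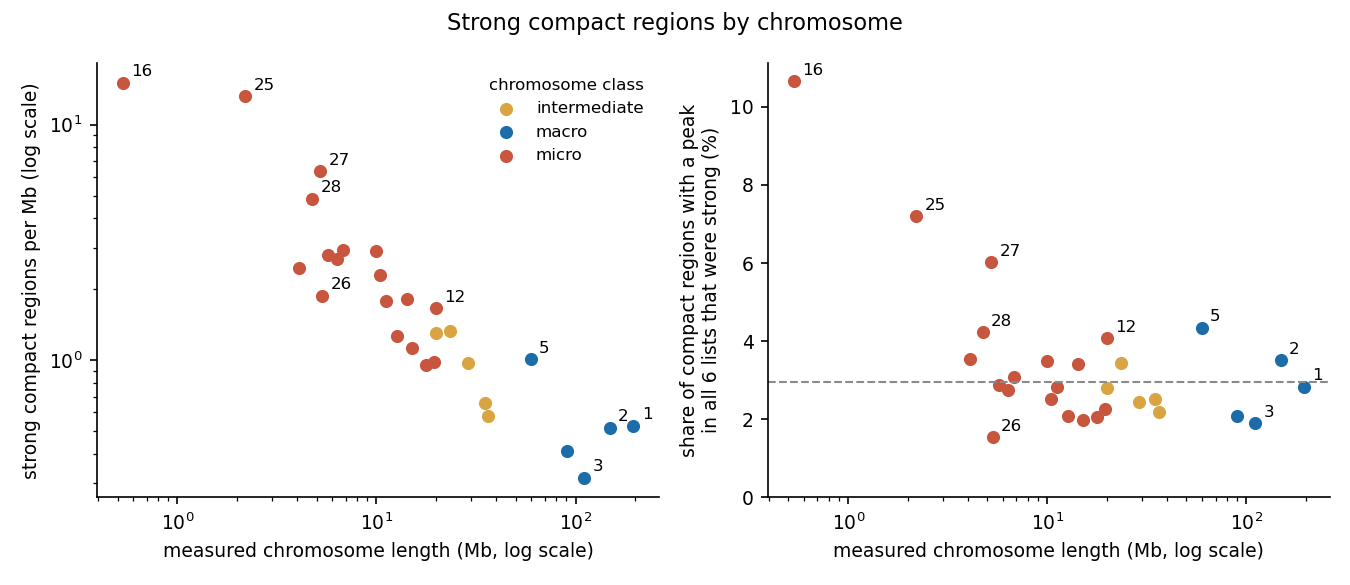
Strong compact regions per Mb on each numbered chromosome, and the share of a chromosome's compact regions with a peak in all 6 lists that were strong (percent). Chromosomes 16 and 25 stand highest on both, at 15.1 and 13.2 per Mb and at 10.7% and 7.20%.

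A larger share of strong compact regions than of other compact regions lay near chromosome ends. This and the shares of neighbours below are descriptions, with no test over regions. Within 200 kb of the first base or of the highest peak end there were 72 (8.91%), against 2.68% of the others. The shares were 4.17% against 1.63% on macrochromosomes, 5.43% against 1.74% on intermediate chromosomes and 14.2% against 4.06% on microchromosomes. Chromosome 16 is so short here that most of it counts as an end, and without it the shares were 8.12% against 2.47%. The 72 were spread over 21 chromosomes, with 49 at the start side and 23 at the end side, where the others had 335 and 377. Within 1000 kb of an end the shares were 25.4% and 16.5%. In the 4 libraries with fewer Z peaks, 8.06% of the strong compact regions lay within 200 kb of an end, against 2.58%.

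They also lay near each other. For 407 (50.4%) another strong compact region began or ended within 50 kb, whereas 20.3% of the other compact regions had a strong compact region that near. The median gap to the nearest one was 47.4 kb, against 290 kb for the others. By class the shares within 50 kb were 39.7% against 12.4% on macrochromosomes, 48.1% against 21.2% on intermediate chromosomes and 60.2% against 27.2% on microchromosomes. At 10 kb the shares were 25.9% against 7.02%, and at 100 kb 61.3% against 30.4%. Length classes kept the direction, with 28% against 14.6% under 1000 bp, 47.6% against 26.1% at 1000 to under 2000 bp and 55.9% against 38.0% at 2000 to under 3000 bp. Strong regions with a broad peak were near as well, within 50 kb of 43.4% of the strong compact regions and of 18.0% of the others. Around the strong compact regions a median of 10 compact regions of any score lay within 50 kb, against 8 around the others. Within each length class the median was lower around the strong compact regions. It was 2 against 5 under 1000 bp and 9 against 11 at 1000 to under 2000 bp. At 2000 to under 3000 bp it was 12 against 14, and at 3000 bp or more 13 against 15.

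Some of the neighbours nearly touched, as 46 regions lay within 500 bp of another and 146 (18.1%) within 5000 bp. With peaks joined across gaps of up to 500 bp, 687 strong compact regions were found, and 42.5% of them had another within 50 kb, against 15.2% of the others. In the 4 libraries with fewer Z peaks the shares were 52.1% and 26.4%. The shares under a ranking by score per kb were 29.9% and 16.9%.

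**Figure D5:**
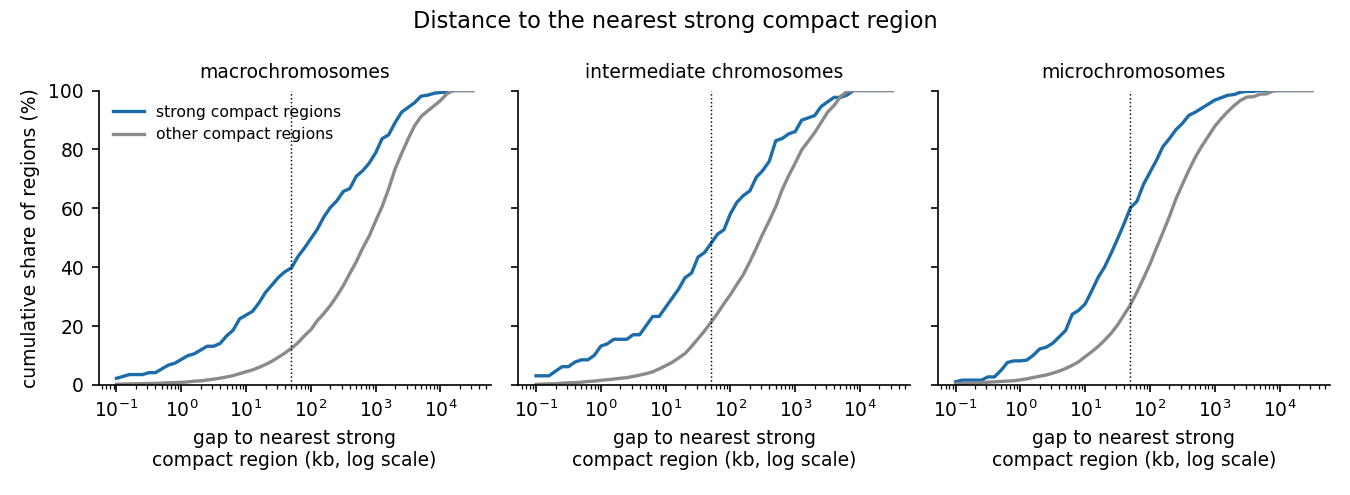
Cumulative share of regions (y axis) by the gap to the nearest strong compact region (x axis, log scale), for strong compact regions and for other compact regions with a peak in all 6 lists, by chromosome class. The strong compact regions reach 39.7%, 48.1% and 60.2% at 50 kb on macrochromosomes, intermediate chromosomes and microchromosomes, above 12.4%, 21.2% and 27.2% for the others.

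Joined at gaps of up to 50 kb, the 808 regions formed 147 clusters of at least 2 and 401 single regions. The 9 clusters of at least 5 held 72 regions (8.91%). The largest lay near the start of chromosome 2 (223310 to 405481), with 13 regions in 182172 bp that together covered 15.4% of it. These were 1524 to 2923 bp long, and 4 strong regions with a broad peak and 26 other compact regions lay between them. Resistant replicates 1, 2 and 3 had 11, 11 and 9 of the 13 at the ceiling, and susceptible replicates 1, 2 and 3 had 12, 10 and 9, with 7 at the ceiling in all 6. The first region of the cluster (223310 to 225357) scored 3100, 3100 and 2874 in the resistant libraries and 3100, 2016 and 3114 in the susceptible ones. Its low value in susceptible replicate 2 came with 2 peaks in place of 1, the best of them 1124 bp wide against 1901 to 2029 bp elsewhere. A gap of 55 bp separated it from the next (225413 to 228335), which scored 3100 in every library with widths of 2537 to 2904 bp.

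The second largest cluster was on chromosome 25 (137889 to 243638), with 10 regions in 105750 bp, 3 of them at the ceiling in all 6 libraries. Resistant replicates 1, 2 and 3 had 6, 4 and 6 of the 10 at the ceiling and susceptible replicates 1, 2 and 3 had 8, 7 and 5. Its region from 193252 to 195696 scored 3100 in 5 libraries and 3202 in susceptible replicate 3, with widths of 2252 to 2418 bp. Its region from 209289 to 211838 also scored 3100 in all 6, but was 1 peak in susceptible replicate 1 (2523 bp) and 2 peaks in each of the others, whose best peaks were 1070 to 2153 bp wide. It was one of the 8 regions whose best peaks share no base.

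On chromosome 7 (21551307 to 21702468) 9 regions and 8 strong regions with a broad peak lay within 151162 bp. Only 2 of the 9 were at the ceiling in all 6 libraries. The region from 21670311 to 21671689 never reached it, with scores of 2312, 2539 and 2710 in the resistant libraries and 2528, 2767 and 2336 in the susceptible ones, while its widths stayed between 1193 and 1338 bp. The cluster on chromosome 5 (5695266 to 5803540) held 8 regions, 6 of them at the ceiling in all 6 libraries, and a single broad region. Its lowest scores were 2377 in resistant replicate 3 and 2995 in susceptible replicate 3, both in its first region (5695266 to 5697209), and in the other 4 libraries all 8 were at 3100 or above. The cluster on chromosome 27 (1503257 to 1594354) held 7 regions, of which 1 (1515422 to 1517156) was at the ceiling throughout, with widths of 1614 to 1707 bp. Resistant replicates 1, 2 and 3 had 4, 6 and 1 of the 7 at the ceiling and the susceptible libraries 5, 4 and 2, so that the replicates with most Z peaks were lowest in each group. Clusters of 7 on chromosomes 12 and 19 were of the same number, spread over longer spans.

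In windows of 1 Mb, 618 of 933 (66.2%) held no strong compact region, and the 40 windows with at least 5 held 313 (38.7%) of them. The same windows held 14.1% of the other compact regions. Because the 40 were picked by their count of strong compact regions, a larger share of these is built into the choice and shows no clustering by itself. The fullest were the first 1000000 bp of chromosome 2, with 18, the first 1000000 bp of chromosome 25, with 15, and the window from 21000001 to 22000000 of chromosome 7, with 12. They held 13.8%, 7.73% and 12.4% of the compact regions of their window.

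The most isolated regions were on macrochromosomes and chromosome 7. A pair on chromosome 3 (42233643 to 42234904 and 55831673 to 55836009) lay 13597 kb from each other with none between, and neither had a nearer one on its other side. The first scored 3050, 3081 and 2727 in the resistant libraries and 3100, 2978 and 2658 in the susceptible ones, and the second, made of 2 peaks in every library, scored 3100 in all 6. A region of chromosome 3 (83848807 to 83849590) was 8924 kb from the nearest. Its scores were 3100, 3100 and 3139 in the resistant libraries and 3047, 2163 and 2102 in the susceptible ones, so that the groups did not overlap, while the widths of 627 to 784 bp and 699 to 733 bp did. A 964 bp region of chromosome 4 (42066869 to 42067832) was 6921 kb away, with 3100 in all 6 libraries and no other compact region within 50 kb. The 499 bp region near the start of chromosome 7 was 6757 kb away.

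The groups of libraries overlapped in all 3 measures compared between resistant and susceptible, and each is given as a description with no test. The mean width of the best peak was 1736, 1743 and 1800 bp in the resistant libraries and 1747, 1744 and 1824 bp in the susceptible ones, and the groups overlapped. The means were 1760 ± 34.9 and 1771 ± 45.6 bp (SD, n = 3 each), a difference of −11.5 bp. The width is a description with no test, since the selection kept every peak under 3000 bp in both groups. The mean log2 of the score over the library's median was 3.91 ± 0.044 and 3.88 ± 0.031, a difference of 0.03. This value is a description with no test, since the selection set a floor under the scores and the ceiling a limit above them. Compact regions of the 6 merged lists that stood at percentile 95 or above in a given library numbered 1880, 1796 and 1270 in the resistant libraries. In the susceptible libraries they numbered 1556, 1763 and 1225. The means were 1649 ± 331 and 1515 ± 271, a difference of 134. The number is also a description with no test, since its percentile and width limits are those of the selection. The lists differed in length, and with lists cut to equal length the difference was 23. The number did not rise with list length throughout. Resistant replicate 3 had 56120 peaks and 1270 such regions, and susceptible replicate 1 had 55759 peaks and 1556. The lowest numbers, 1270 and 1225, belonged to the libraries with most Z peaks, 1 in each group. What sets the number was not tested. Permutation tests over libraries were computed for the 3 measures and are left out here, since limits of the selection enter each measure. With 3 libraries against 3 their p could not be less than 0.1. Without susceptible replicate 3 the difference in width turned to 16.1 bp and that in number to −15.7. The other library with most Z peaks, resistant replicate 3, then remained in the resistant group.

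Region by region, all resistant percentiles stood above all susceptible ones in 36 of the 808 (4.46%), where 5.87% of all compact regions with a peak in all 6 lists did so. The opposite held in 8 (0.990%), against 3.12%. For the score over the library's median, with scores above 3100 set to 3100, 37 (4.58%) were higher in every resistant library, against 6.26%, and 7 (0.866%) in every susceptible library, against 3.08%. Both scores were limited from below by the selection and from above by the ceiling, so shares under the background are no result about these regions. A score of 3100 stood at percentile 98.44 in susceptible replicate 1 and at 98.48 to 98.69 in the resistant libraries. Its ratio to the library's median was also lowest in susceptible replicate 1. Equal ceiling scores in that library and the resistant ones could therefore count as resistant higher. For covered length, which the selection bounds through the width of single peaks, 33 (4.08%) were longer in every resistant library, against 3.40%, and 51 (6.31%) in every susceptible library, against 5.73%, which is near the background. With lists cut to equal length, 745 regions were selected, of which 16 (2.15%) had higher percentiles in every resistant library and 13 (1.74%) in every susceptible library. The shares over all compact regions with a peak in all 6 of those lists were then 4.53% and 4.61%.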

How the data were processed

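MeDIP-seq of chicken liver was represented by 1 peak list for each of 6 immunoprecipitated libraries. Per the submitters' processing notes, cutadapt, Bowtie2 and the build galGal4 were used. Not given in the sources used here are their versions, read filters and the treatment of duplicates. List and peak names show that the authors ran MACS on each library separately, with its own sample's input and a p-value limit of 1e-08, so no replicates were pooled. The score deposited by the authors was read from its values as −10 times the log10 of p. It is not a methylation level, it is scaled for neither depth nor peak width, and no read counts were used, so no interval for counting error is given. The 6 input libraries were not analysed here.

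Peaks on chromosomes 1 to 28 were merged at 0 bp gap, scores were ranked within each whole list with ties at their mean rank, and regions at percentile 95 or above in all 6 lists without a peak of 3000 bp or more were kept. Groups were taken from the source labels. Gaps were measured between region edges, and a region was never its own neighbour. Group means were also compared by exact two-sided permutation over libraries, and those tests are not reported. The code of the selection was checked on simulated lists with planted regions at the ceiling, which says nothing about the regions found here. Python 3.11.15, numpy 2.4.6, pandas 2.3.3, SciPy 1.17.1 and matplotlib 3.10.9 were used.

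The regions and measures were chosen with earlier results of these data known. Regions are named by a rule: the 10 with the highest lowest percentile, the 5 longest, shortest and most isolated, those of the 5 largest clusters, the 3 on each side of the limit, every chromosome and the 3 fullest windows of 1 Mb. Ties among the 10, and examples within clusters, were settled after the values were seen. Alternatives were other limits of percentile and width, score per kb, equal list lengths, joined peaks, other distances and each library left out. Capped scores, tie ranks, the 4 libraries with fewer Z peaks, and the distance to chromosome ends were added after the data were seen.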

Additional observations from a re-analysis of the deposited data

How the results depend on the processing

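At percentile 99 no region remained, because ties place 3100 near percentile 98. No paired analysis was possible because the replicate numbers follow the order of deposition and pair no samples. The score ceiling and unknown depth limit any ranking at the top. In what follows, values come in the order number, median length (bp), microchromosome share (%), density ratio of microchromosomes to macrochromosomes, share with another within 50 kb (%), share within 200 kb of an end (%), and excess of the share of length common to all 6 libraries over other compact regions (percentage points). As reported they were 808, 2107, 45.4, 4.14, 50.4, 8.91 and 19.9. Where libraries were left out, the common length was that shared by the libraries used, so those excesses do not measure the same thing as 19.9. The causes of the changes were not tested.

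At percentile 90 they were 2161, 1862, 48.1, 4.73, 64.3, 6.11 and 17.4. With peaks under 2000 bp the first 5 were 398, 1535, 38.2, 2.94 and 26.1, and the excess was 19.1. With peaks under 5000 bp the first 5 were 1274, 2737, 49.5, 5.04 and 65.5. With no width limit they were 1501, 3031, 50.8, 5.30 and 71.3, and the excess was 21.2. Score per kb gave 767 regions, 1130 bp, 33.0%, 2.21, 29.9%, 7.69% and 14.8 points, and 90.3% strong in a left-out list. Of the 808, 399 (49.4%) were found by score per kb and 745 (92.2%) with equal list lengths, where 48.6% had another within 50 kb. Joined peaks gave 2597 bp, 42.5%, 7.42% and 17.8 points for length, nearness, ends and excess. The 4 libraries with fewer Z peaks gave 1266 regions, 1913 bp, 52.1%, 8.06% and 16.1 points. Nearness was 25.9% at 10 kb and 61.3% at 100 kb. Per region found in all 6 libraries the density ratio was 1.06. The excess was 12.6, 23.4, 21.1 and 13.4 points in the length classes from shortest to longest.

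Counts of regions without overlap between groups moved partly with the number of regions. Resistant and susceptible higher numbered 36 and 8 of 808 (4.46% and 0.990%) as reported. They were 139 and 35 of 2161 (6.43% and 1.62%) at percentile 90, 19 and 4 of 398 (4.77% and 1.01%) under 2000 bp, 16 and 13 of 745 (2.15% and 1.74%) with equal list lengths, and 195 and 72 of 1266 (15.4% and 5.69%) in 4 libraries. Over all compact regions with a peak in every list the shares were 5.87% and 3.12%, 5.87% and 3.12%, 5.92% and 3.19%, 4.53% and 4.61%, and 21.2% and 12.4% in the same order. Susceptible higher numbered 22 of 767 by score per kb (2.87%, against 4.02%) and 5 of 687 with joined peaks (0.728%, against 3.06%). By covered length in place of percentile it was 51 of 808 (6.31%, against 5.73%), near the background. Resistant higher numbered 62 of 808 with ties at their highest rank (7.67%, against 5.98%). Under either ranking of ties a score of 3100 takes a different percentile in each list. Equal scores can therefore count as higher, and this share is no result about these regions.

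Leaving out each library in turn gave 842 to 943 regions, 2046 to 2099 bp, 45.6% to 46.6% on microchromosomes, a ratio of 4.17 to 4.38, 51.1% to 53.0% with another within 50 kb, 8.79% to 9.57% near ends and an excess of 18.6 to 19.1 points. Counts without overlap ran from 56 to 106 and from 12 to 38, with only 2 libraries left in a group, where shares over all compact regions rose as well, to between 9.32% and 15.9% and between 5.14% and 8.61%. The group difference ran from −34.1 to 16.1 bp in width, from −15.7 to 322.7 in number and from 0.01 to 0.05 in log2 score. The reversed values, 16.06 bp and −15.67 regions, came without susceptible replicate 3.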
